A study of Caenorhabditis elegans with 18 samples.

Results

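The lysozyme and saposin-like protein genes of Caenorhabditis elegans were followed in worms kept in metal-contaminated soil with and without nanoscale zero-valent iron (nZVI). Such iron particles are added to polluted soils because they bind and immobilise metals. The genes taken were all those whose single symbol in the platform annotation starts with lys-, ilys- or spp- and a number. Each is measured by 1 probe set, which gives 44 genes among 28387 probe sets, of which 25546 have a single symbol. They are 10 lys genes, 6 ilys genes and 28 spp genes, and all 44 are described. The genes were taken by symbol, with no measured difference in the rule, but the set was chosen with earlier results of these data known.

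Lysozymes cut the peptidoglycan of bacterial cell walls. The lys genes of C. elegans encode lysozymes related to those of protists, and the ilys genes encode lysozymes of the invertebrate type. The spp genes encode saposin-like proteins, also called caenopores, which are relatives of the pore-forming amoebapores of the amoeba Entamoeba. Several of these proteins are made in the intestine, where the worm both breaks down the bacteria it eats and meets pathogens, so they are counted among both its digestive proteins and its immune effectors.

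The worms were of the wild-type strain N2, grown to the L4 stage and young adulthood and then held for 48 h at 20 °C in wells with 0.3 g of soil and E. coli OP50 as food, with 7500 to 10000 worms in a well. All soils, those of the controls included, contained Pb at 2700, Zn at 4200 and Cd at 310 mg/kg, so every group was exposed to metals and no uncontaminated soil is among the samples. The 6 groups are control soil (no nZVI) and nZVI soil, each sampled 3 times (0 days, 14 days and 4 months) on 3 arrays. The labels do not give the event from which the times are counted, the amount of nZVI or how many wells went into a sample. RNA came from whole worms, in which fewer cells of a type and less RNA per cell cannot be told apart.

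Values are normalised log2 signals, so that a difference of 1 is a 2-fold change. Differences are given as nZVI minus control ± SE, from a limma fit to all 18 arrays, and a gene was called at an adjusted p under 0.05 over all probe sets. The 18 arrays had medians of 3.85 to 3.99, and arrays of a group correlated at 0.970 to 0.996 over probe sets. At 14 days nZVI array 2 differed from the other arrays of its group in marker genes. Its germline markers had a mean log2 signal of 8.29 against 7.45 and 7.43, and its pharynx markers 5.99 against 6.83 and 6.73. Control arrays 1 and 3 at 4 months had the narrowest spread of signals, with interquartile ranges of 3.80 and 3.70 against at least 4.07 in every other array. Calls of lysozyme and saposin-like genes at 4 months that were lost when control array 2 stood alone for control soil are named with their genes. In that fit, chosen after seeing the data, the lone array is assumed to vary like the other groups. For the pathway and marker genes described further below no such fit is given, so their calls at 4 months were not tested in this way.

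The 44 genes covered most of the range of the array. The highest mean signals over the 18 arrays were those of spp-5 (11.32), lys-8 (10.47) and spp-8 (9.07), which were the 3 genes of the 44 in the top 10% of all probe sets. In 21 genes (47.7%) every array lay above the median of all values, 3.93, against 41.1% of all probe sets. In 10 genes every array lay below it, against 37.6% of all probe sets. Signals of different probe sets depend on their probes, so these levels order the measurements and not the amounts of transcript.

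More of these genes differed between nZVI and control soil than of the array as a whole, and most of those were higher in nZVI soil. At 0 days 17 genes rose in nZVI soil and 1 fell (40.9% called), where 16% of all probe sets were called, 8.22% higher and 7.74% lower. At 14 days 13 rose and 3 fell (36.4%), where 8.99% of probe sets were called, 3.6% higher and 5.39% lower. At 4 months 10 rose and 1 fell (25.0%), where 7.08% were called, 4.77% higher and 2.3% lower. The median log2 difference of the 44 genes was 0.43, 0.39 and 0.16 at the 3 times, and that of all probe sets was -0.01, 0.04 and -0.03. The low-signal filter kept 30 of the 44 genes, and 19, 15 and 11 of these were called at the 3 times. Of the probe sets kept, 29.3%, 15.7% and 12.5% were called, larger shares than those of all probe sets. Averaged over times, 21 of the 44 genes rose and 2 fell, where 20.1% of all probe sets were called, 11% higher and 9.13% lower. The count at 4 months was 7 without control array 1 or 3 or nZVI array 1, fits for which the share of all probe sets is not given. It was 5 when only the 6 arrays of that time were fitted (1.35% of all probe sets called). With control array 2 alone for control soil it was 3 (0.655% of all probe sets called), namely ilys-5, spp-1 and spp-4.

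**Figure D1:**
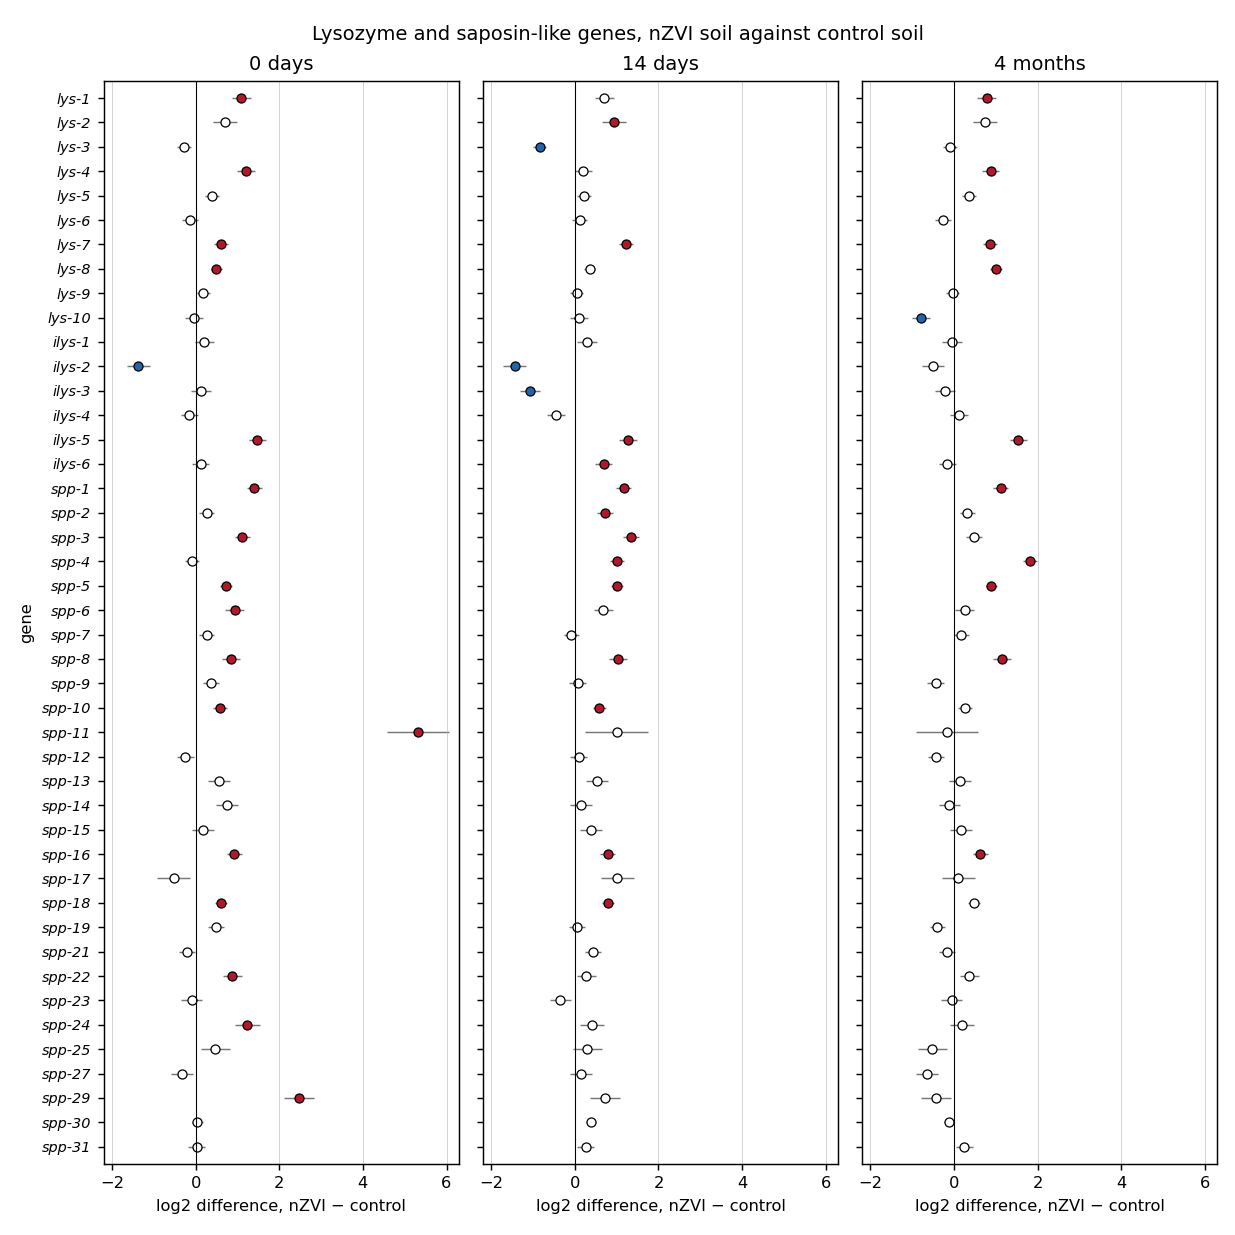
The log2 difference between nZVI and control soil of each of the 44 genes at 0 days, 14 days and 4 months, with the SE as a bar. Red points were called higher in nZVI soil (17, 13 and 10 genes), blue points were called lower (1, 3 and 1) and open points were not called.

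Counted over the 3 times, 25 of the 44 genes (56.8%) were called at 1 or more, where 23.8% of all probe sets were. A set of 6 genes rose at all 3 times: lys-7, ilys-5, spp-1, spp-5, spp-8 and spp-16. This is 13.6% of the 44, where 1% of all probe sets rose at all 3 times. With control array 2 alone for control soil at 4 months, ilys-5 and spp-1 were still called at that time, and lys-7, spp-5, spp-8 and spp-16 were not. No gene fell at all 3 times (0.447% of probe sets) and none rose at one time and fell at another (0.303%). The 3 and 3 arrays of the soils did not overlap for 21 genes at 0 days, 23 at 14 days and 22 at 4 months, where 34.9%, 27.5% and 22.3% of all probe sets did not overlap. No spp gene was called lower in nZVI soil at any of the 3 times, whereas 2 lys genes and 2 ilys genes were.

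**Figure D2:**
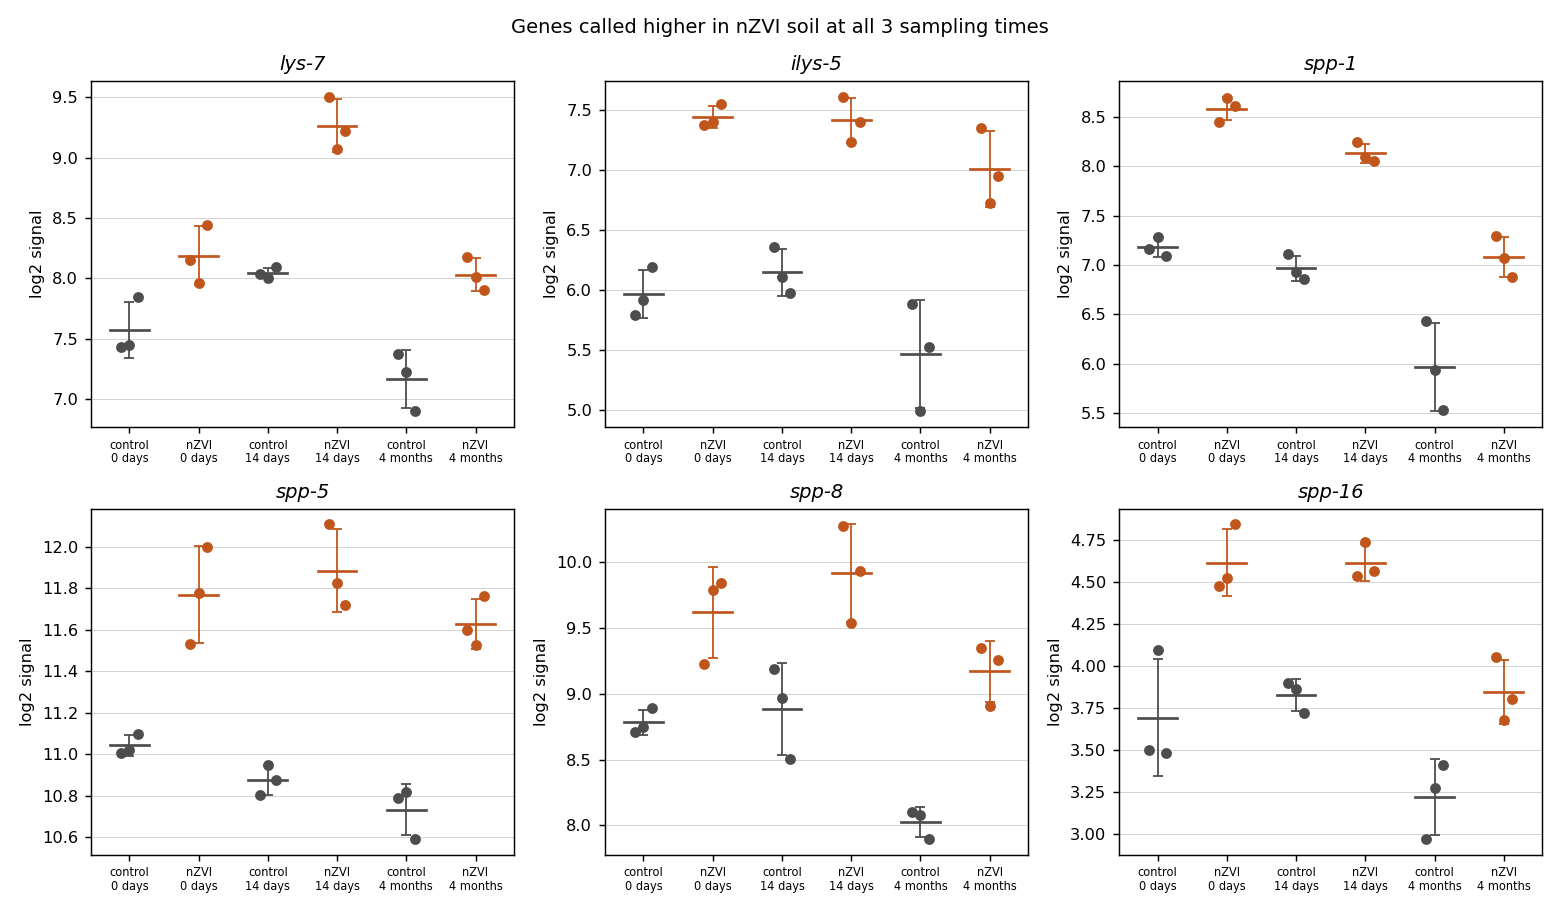
Log2 signals of the 6 genes that were called higher in nZVI soil at all 3 times, by soil and time, with each array as a point and the mean ± SD of 3 arrays as bars (grey, control soil; orange, nZVI soil). The vertical axes differ between genes and do not start at 0, and the nZVI arrays lie above the control arrays of the same time in every panel.

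Among the protist-type lysozymes, lys-7 rose at all 3 times. It is a known target of the transcription factor DAF-16 and takes part in defence against several microbes. Its log2 signals in control soil were 7.43, 7.45 and 7.84 at 0 days, 8.03, 8.01 and 8.10 at 14 days and 7.38, 7.22 and 6.90 at 4 months. In nZVI soil they were 8.15, 7.96 and 8.45, then 9.51, 9.07 and 9.22, then 8.18, 8.02 and 7.90. The soils did not overlap at any time, and the nZVI arrays at 14 days were the highest of the 18. The differences were 0.61 ± 0.17 (adjusted p = 0.0205), 1.22 ± 0.17 (adjusted p = 0.000151) and 0.86 ± 0.17 (adjusted p = 0.0054). Leaving out control array 1, control array 2 or nZVI array 3 ended the call at 0 days (adjusted p = 0.089, 0.0813 and 0.109). At 4 months the adjusted p was 0.0634 when only the 6 arrays of that time were fitted, and with control array 2 alone the difference was 0.81 (adjusted p = 0.161).

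The lys-8 gene, an intestinal lysozyme whose expression is known to depend on the DBL-1 pathway, had the highest signals of the lys genes. Control arrays read 10.47, 10.46 and 10.64 at 0 days, 10.79, 10.85 and 10.62 at 14 days and 9.15, 9.47 and 9.05 at 4 months. In nZVI soil the arrays read 10.96, 10.96 and 11.12, then 11.24, 11.08 and 11.00, then 10.38, 10.21 and 10.08. Every nZVI array lay above every control array of its time, and the gap was widest at 4 months, when the control arrays were the lowest of the 18. The differences were 0.49 ± 0.14 (adjusted p = 0.0219), 0.35 ± 0.14 (adjusted p = 0.143, not called) and 1.00 ± 0.14 (adjusted p = 0.000401). With control array 2 alone at 4 months the last was 0.75 (adjusted p = 0.0783). At 0 days the call ended when control array 1, control array 2 or nZVI array 3 was left out (adjusted p = 0.0763, 0.0762 and 0.0903). The change of the difference from 0 days to 4 months was 0.50 ± 0.20 (adjusted p = 0.155), and without control array 2 at 4 months it was 0.63 (adjusted p = 0.0403).

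The lys-1 gene is an intestinal lysozyme known to be induced by the bacterium Serratia marcescens. Control arrays read 7.26, 7.77 and 7.73 at 0 days, 7.90, 7.96 and 7.40 at 14 days and 7.09, 7.63 and 7.09 at 4 months. Arrays of nZVI soil read 8.81, 8.83 and 8.40, then 8.64, 8.23 and 8.49, then 8.47, 7.97 and 7.72. The nZVI arrays were higher at each time with no overlap. The differences were 1.09 ± 0.23 (adjusted p = 0.00315), 0.70 ± 0.23 (adjusted p = 0.0642, not called) and 0.78 ± 0.23 (adjusted p = 0.0439). The call at 4 months ended with the replicate number as a block, a pairing that the labels do not state (adjusted p = 0.0551). Leaving out control array 1 or 3 (adjusted p = 0.153 and 0.17) or nZVI array 1 or 2 (adjusted p = 0.169 and 0.0945) ended that call too, and with control array 2 alone the difference was 0.42 (adjusted p = 0.841). Without nZVI array 2 the difference at 14 days was 0.81 (adjusted p = 0.0499).

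The lys-4 gene was near the median of the array. Control arrays read 4.08, 4.31 and 4.25 at 0 days, 3.64, 3.91 and 3.94 at 14 days and 3.04, 3.55 and 3.46 at 4 months. With nZVI they read 5.58, 5.08 and 5.58, then 4.28, 3.70 and 4.11, then 4.65, 3.85 and 4.16. The soils overlapped at 14 days and at neither of the other times. The rise was 1.20 ± 0.21 at 0 days (2.30-fold, adjusted p = 0.000837) and 0.87 ± 0.21 at 4 months (adjusted p = 0.0192). Leaving out control array 1 or 3 (adjusted p = 0.0977 and 0.0527) or nZVI array 1 or 3 (adjusted p = 0.0899 and 0.0551) ended the call at 4 months, and with control array 2 alone the difference was 0.67 (adjusted p = 0.506).

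Of the other 6 lys genes, 3 were called at 1 time each. The lys-2 gene rose at 14 days by 0.94 ± 0.29 (adjusted p = 0.0493), with 6.45, 5.77 and 5.74 in nZVI soil against 5.14, 5.14 and 4.87. Leaving out any array of the 2 groups except nZVI array 2 ended that call (adjusted p from 0.0614 to 0.235). The lys-3 gene fell at 14 days by 0.84 ± 0.16 (adjusted p = 0.00234), with 8.0, 7.44 and 7.76 in nZVI soil against 8.37, 8.52 and 8.82. The call of lys-3 held without each array of the 2 groups. The lys-10 gene lay far below the median of the array and was called lower at 4 months (-0.79 ± 0.22, adjusted p = 0.0357), with 2.33, 2.41 and 2.43 against 3.81, 2.63 and 3.10. Control array 1 was the highest of these, and without it the difference was -0.47 (adjusted p = 0.156). With control array 2 alone it was -0.24 (adjusted p = 0.891). Leaving out 1 array at a time, lys-10 kept its call only without control array 2 among the 6 arrays. The remaining genes, lys-5, lys-6 and lys-9, were not called at any of the 3 times, with differences between -0.26 and 0.39.

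The invertebrate-type lysozymes moved in both directions. The ilys-5 gene rose at all 3 times, from 5.79, 5.92 and 6.19 in control soil to 7.37, 7.40 and 7.55 at 0 days. At 14 days control arrays read 6.36, 6.11 and 5.98 and nZVI arrays 7.61, 7.24 and 7.40. At 4 months they read 5.89, 4.99 and 5.53 and 7.35, 6.73 and 6.95. All 9 nZVI arrays lay above all 9 control arrays. The differences were 1.47 ± 0.21, 1.27 ± 0.21 and 1.54 ± 0.21 (2.78-fold, 2.41-fold and 2.91-fold, adjusted p = 0.000104, 0.000679 and 0.000305), and each call held without each array of its groups.

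The ilys-2 gene was the one gene of the 44 that fell at 2 times. Control arrays read 6.0, 5.60 and 5.48 at 0 days, 5.42, 5.76 and 5.47 at 14 days and 5.16, 5.28 and 4.19 at 4 months. Under nZVI the signals were 3.84, 4.68 and 4.46, then 4.48, 3.99 and 3.84, then 4.40, 4.17 and 4.54. The soils were apart at 0 and 14 days and overlapped at 4 months, when control array 3 lay among the nZVI arrays. The falls were -1.37 ± 0.27 (2.58-fold lower, adjusted p = 0.00208) and -1.44 ± 0.27 (2.72-fold lower, adjusted p = 0.00195), and at 4 months the difference was -0.50 ± 0.27 (adjusted p = 0.277).

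Its chromosomal neighbour ilys-3 is a lysozyme of the intestine, pharynx and coelomocytes that is known to help break up ingested bacteria. Its control arrays read 7.33, 7.55 and 7.04 at 0 days, 7.23, 7.24 and 7.46 at 14 days and 6.0, 5.74 and 6.87 at 4 months. For nZVI soil the values were 7.37, 7.60 and 7.35, then 6.21, 6.50 and 6.01, then 6.31, 5.80 and 5.81. High signals were thus found in both soils at 0 days and in control soil at 14 days, and lower ones in nZVI soil at 14 days and in most arrays of both soils at 4 months. The gene fell in nZVI soil at 14 days (-1.07 ± 0.24, 2.10-fold lower, adjusted p = 0.0078). It was not called at 0 days (0.14 ± 0.24) or 4 months (-0.23 ± 0.24), and the difference between the effects at 14 days and 0 days was -1.21 ± 0.34 (adjusted p = 0.104, and 0.0245 in the fit with control array 2 alone at 4 months). The ilys-6 gene was called higher at 14 days (0.69 ± 0.21, adjusted p = 0.0467), a call lost without each of the arrays of its groups except nZVI array 2 (adjusted p from 0.0519 to 0.237). It was also lost when only the 6 arrays of that time were fitted (adjusted p = 0.103). Signals of ilys-6 were low, with 1 of the 18 arrays above the median of the array. ilys-1 and ilys-4 were not called at any of the 3 times.

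**Figure D3:**
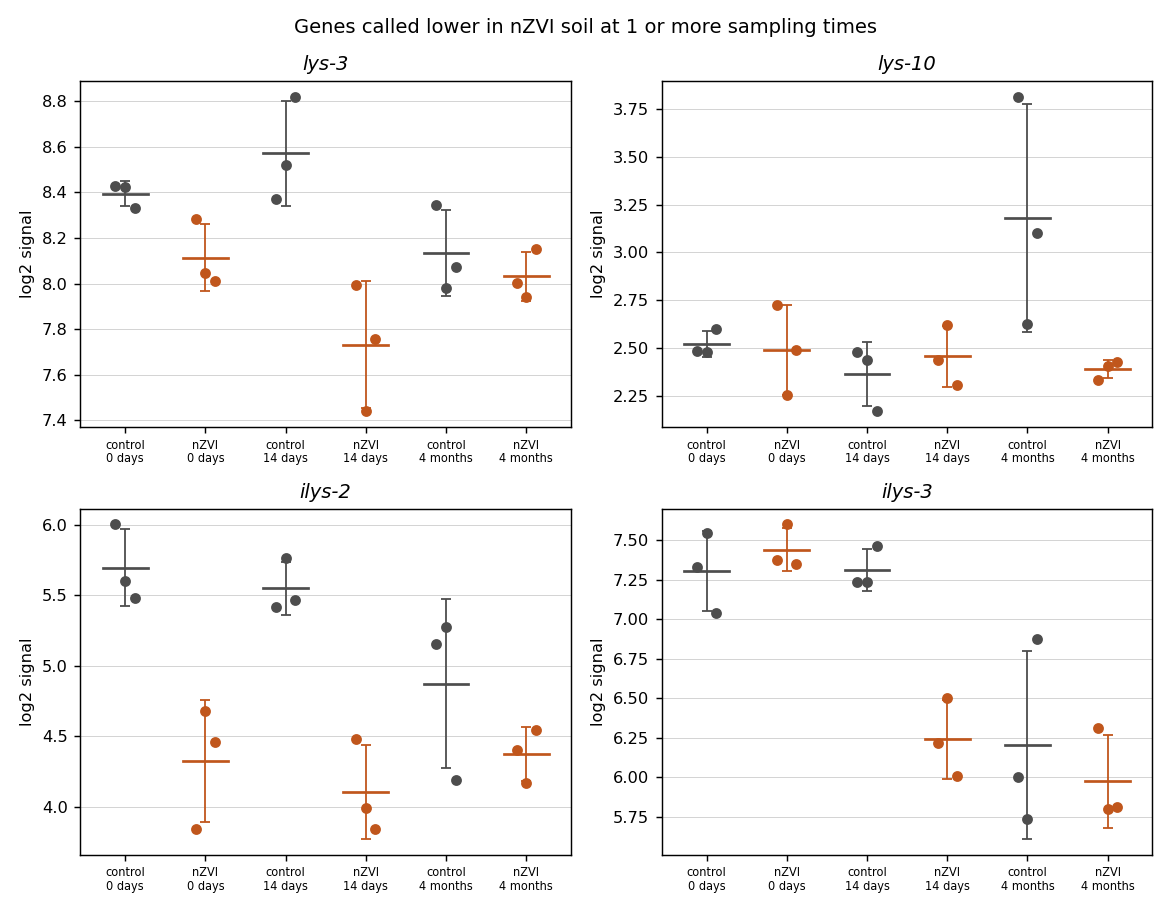
Log2 signals of the 4 genes that were called lower in nZVI soil at 1 or more times, by soil and time, with each array as a point and the mean ± SD of 3 arrays as bars (grey, control soil; orange, nZVI soil). The vertical axes differ between genes and do not start at 0. The ilys-2 arrays of nZVI soil lie below those of control soil at 0 and 14 days, and the single high control array of lys-10 at 4 months stands at 3.81.

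Among the saposin-like genes, spp-1 (caenopore-1) and spp-5 (caenopore-5), whose products are known as pore formers active against bacteria, rose at all 3 times. Control arrays of spp-1 read 7.16, 7.28 and 7.09 at 0 days, 7.11, 6.93 and 6.86 at 14 days and 6.43, 5.93 and 5.53 at 4 months. Its nZVI arrays read 8.45, 8.69 and 8.61, then 8.24, 8.09 and 8.06, then 7.29, 7.07 and 6.88. The soils were apart at every time, and both were lowest at 4 months. The rises of spp-1 were 1.41 ± 0.18 (2.65-fold, adjusted p = 4.5e-05), 1.17 ± 0.18 (2.24-fold, adjusted p = 0.000424) and 1.11 ± 0.18 (2.17-fold, adjusted p = 0.00149). When only the 6 arrays of 4 months were fitted, the adjusted p of the last was 0.071.

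The spp-5 gene, the brightest of the 44, read 11.00, 11.02 and 11.10 in control soil at 0 days, 10.81, 10.95 and 10.88 at 14 days and 10.79, 10.82 and 10.59 at 4 months. In nZVI soil it read 11.53, 11.78 and 12.00, then 12.11, 11.82 and 11.72, then 11.60, 11.52 and 11.76. All 9 nZVI arrays lay above all 9 control arrays, and the means of each soil stayed within a narrow range over time. The differences were 0.73 ± 0.14 (1.66-fold, adjusted p = 0.00203), 1.01 ± 0.14 (2.01-fold, adjusted p = 0.00017) and 0.89 ± 0.14 (1.86-fold, adjusted p = 0.00129), and each call held without each array of its groups. The call at 4 months was lost with control array 2 alone (0.81, adjusted p = 0.0941).

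The spp-8 and spp-16 genes also rose at all 3 times. Control arrays of spp-8 read 8.71, 8.75 and 8.89 at 0 days, 9.19, 8.97 and 8.50 at 14 days and 8.11, 8.08 and 7.90 at 4 months. In nZVI soil its signals were 9.22, 9.79 and 9.84, then 10.28, 9.54 and 9.94, then 9.35, 8.91 and 9.26. No nZVI array of spp-8 lay below a control array of its time. The differences were 0.84 ± 0.21 (adjusted p = 0.0126), 1.03 ± 0.21 (adjusted p = 0.00427) and 1.14 ± 0.21 (adjusted p = 0.0039), and the call at 0 days was lost without nZVI array 2 (adjusted p = 0.0593) or nZVI array 3 (0.0646). The call of spp-8 at 4 months was lost with control array 2 alone (1.09, adjusted p = 0.172). The spp-16 gene had signals of 2.97 to 4.84, around the median of the array, and rose by 0.92, 0.79 and 0.63 ± 0.18. At 4 months its adjusted p of 0.0393 became 0.0654 with the replicate number as a block, a pairing that the labels do not state. That call of spp-16 was also lost without any of the 6 arrays except control array 2 (adjusted p from 0.0585 to 0.163), and with control array 2 alone (adjusted p = 0.471).

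The spp-3 gene rose at 0 and 14 days. Control arrays read 7.55, 7.63 and 7.35 at 0 days, 7.55, 7.24 and 7.58 at 14 days and 8.14, 7.40 and 7.77 at 4 months. In nZVI soil the arrays read 8.45, 8.68 and 8.74, then 8.96, 8.87 and 8.56, then 8.38, 7.96 and 8.39. The soils were apart at the first 2 times and overlapped at 4 months. The differences were 1.12 ± 0.19 (adjusted p = 0.000539), 1.34 ± 0.19 (adjusted p = 0.000152) and 0.48 ± 0.19 (adjusted p = 0.133).

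For 3 spp genes the difference between the soils itself changed with time. From 0 to 14 days it grew in 1 gene and shrank in 0 (1.05% of all probe sets called, 0.535% upwards and 0.518% downwards). From 0 days to 4 months it grew in 1 and shrank in 2 (4.32% called, 2.96% upwards and 1.35% downwards). The spp-4 gene had its smallest difference at 0 days and its largest at 4 months. Control arrays read 5.53, 5.65 and 5.77 at 0 days, 5.42, 5.38 and 5.19 at 14 days and 5.21, 5.69 and 5.67 at 4 months. Arrays of nZVI soil read 5.25, 5.83 and 5.59, then 6.50, 6.18 and 6.34, then 7.47, 7.26 and 7.30. The control arrays of all times lay between 5.19 and 5.77, while the nZVI arrays of each later time lay above all those of the time before. The differences were -0.09 ± 0.17 (adjusted p = 0.789), 1.01 ± 0.17 (2.01-fold, adjusted p = 0.000718) and 1.82 ± 0.17 (3.54-fold, adjusted p = 1.29e-05). The effect at 4 months exceeded that at 0 days by 1.91 ± 0.24 (adjusted p = 0.000188), which held without each of the 12 arrays. The effect at 14 days exceeded that at 0 days by 1.10 ± 0.24 (adjusted p = 0.0306), a call lost without any 1 of 9 of the 12 arrays (largest adjusted p = 0.0858). It was also lost with a trend and robust variance (adjusted p = 0.0695) and with the replicate number as a block (adjusted p = 0.0558).

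The spp-11 gene had the largest single difference of the 44. At 0 days control arrays read 2.03, 2.96 and 2.37 and nZVI arrays 7.36, 8.03 and 7.91, a rise of 5.31 ± 0.74 on the log2 scale (adjusted p = 9.72e-05). Those control arrays all lay below the median of 3.93, and the values used here carry no background call, so no fold is given for spp-11. At 14 days control arrays read 4.96, 4.64 and 4.72, and nZVI arrays 7.17, 2.85 and 7.29. At 4 months all 6 arrays were low again, with 2.90, 2.42 and 2.63 in control soil and 2.15, 2.43 and 2.86 in nZVI soil. The difference at 14 days was 1.00 ± 0.74 (adjusted p = 0.527) with all arrays and 2.45 (adjusted p = 1.45e-05) without nZVI array 2. Without that array the effect also changed by the test from 0 to 14 days (-2.86, adjusted p = 0.000261) and from 14 days to 4 months (-2.62, adjusted p = 0.000774). The difference at 4 months was -0.17 ± 0.74. Between 0 days and 4 months the effect changed by -5.48 ± 1.05 (adjusted p = 0.00773). This call held without each of the 12 arrays, and was lost when control array 2 stood alone for control soil at 4 months (adjusted p = 0.0771).

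A like order of groups was seen in spp-29. Control arrays read 2.59, 2.89 and 2.57 at 0 days, 3.04, 3.31 and 3.06 at 14 days and 3.40, 3.07 and 3.04 at 4 months. With nZVI they read 4.66, 5.01 and 5.82, then 4.19, 2.72 and 4.68, then 2.81, 2.92 and 2.45. High signals were confined to nZVI soil at 0 days and nZVI arrays 1 and 3 at 14 days, and every control array lay under the median of the array. The rise at 0 days was 2.48 ± 0.36 on the log2 scale (adjusted p = 0.000144), from control arrays below the median. At 14 days the difference was 0.73 ± 0.36 (adjusted p = 0.278) with all arrays and 1.30 (adjusted p = 0.00387) without nZVI array 2, when the change of effect from 14 days to 4 months was -1.74 (adjusted p = 0.0172). At 4 months the difference was -0.44 ± 0.36, and the effect changed from 0 days by -2.92 ± 0.51 (adjusted p = 0.0039).

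The spp-24 gene rose at 0 days alone. Control arrays read 5.32, 4.52 and 4.25 at 0 days, 4.87, 4.84 and 5.31 at 14 days and 3.99, 4.29 and 3.58 at 4 months. Under nZVI the signals were 5.59, 5.99 and 6.23, then 6.01, 4.84 and 5.38, then 4.07, 4.19 and 4.15. The groups were apart at 0 days and overlapped later, and signals at 4 months were low in both soils. The differences were 1.24 ± 0.29 (2.36-fold, adjusted p = 0.00756), 0.40 ± 0.29 and 0.19 ± 0.29, and no change of the effect between times was called.

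**Figure D4:**
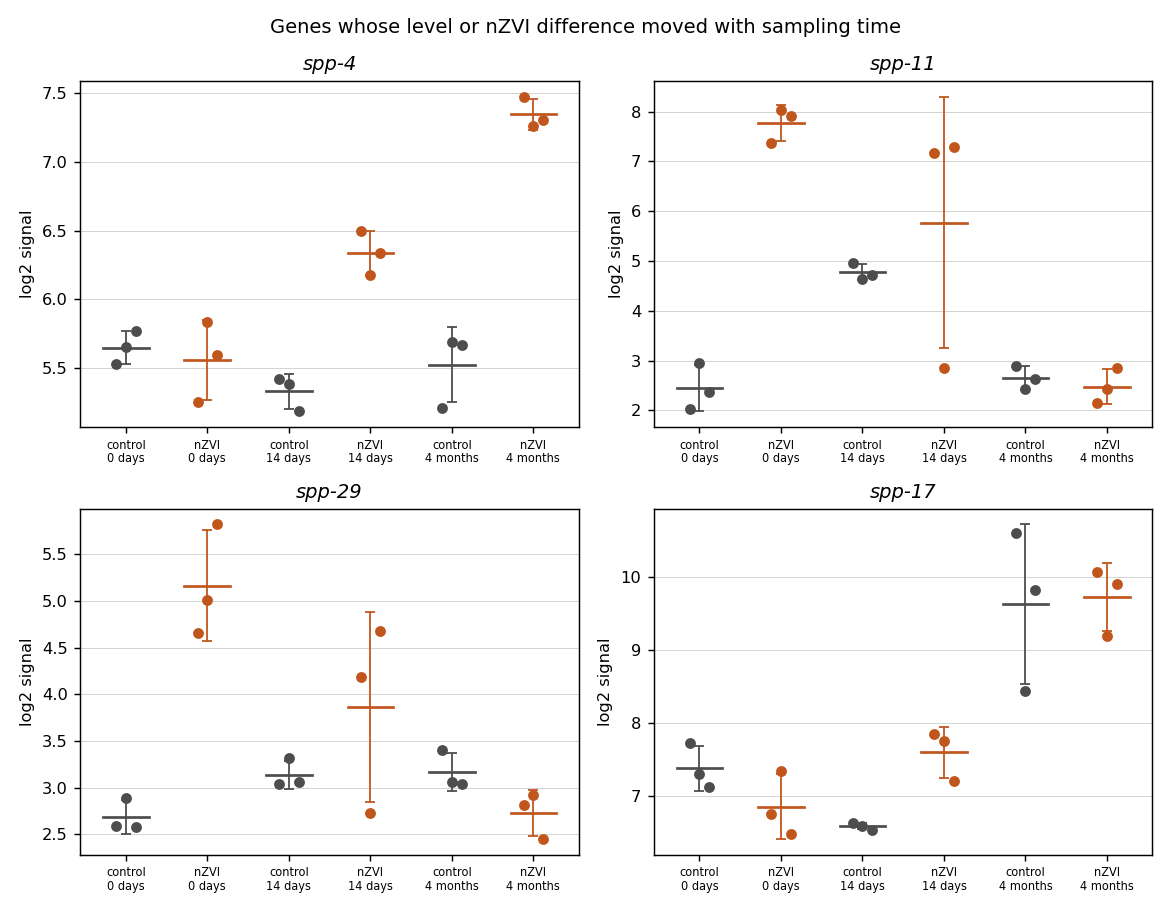
Log2 signals of spp-4, spp-11, spp-29 and spp-17 by soil and time, with each array as a point and the mean ± SD of 3 arrays as bars (grey, control soil; orange, nZVI soil). The vertical axes differ between genes and do not start at 0. The spp-4 arrays of nZVI soil lie higher at each later time, the low spp-11 and spp-29 point at 14 days is nZVI array 2, and spp-17 is high in both soils at 4 months.

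A further 5 spp genes were called higher at 1 or 2 times. At 0 days spp-6 rose by 0.94 ± 0.23, spp-22 by 0.88 ± 0.23, spp-18 by 0.60 ± 0.14 and spp-10, a gene related to the lysosomal prosaposin of mammals, by 0.58 ± 0.16. At 14 days spp-18 rose by 0.79 ± 0.14, spp-2 by 0.72 ± 0.18 and spp-10 by 0.59 ± 0.16. Both calls of spp-18 held without each array of their groups. The call of spp-6 was lost without nZVI array 2 (adjusted p = 0.056). That of spp-22 ended without control array 3 or nZVI array 1 or 2 (adjusted p = 0.0755, 0.0634 and 0.0591). That of spp-2 ended without control array 1 or 2 or nZVI array 1 (adjusted p = 0.0911, 0.0821 and 0.129). The spp-10 calls were lost without 3 of 6 arrays at 0 days and 4 of 6 at 14 days (largest adjusted p = 0.0885 and 0.152). When only the 6 arrays of 14 days were fitted, spp-2 and spp-10 were not called (adjusted p = 0.105 and 0.0597). All 18 arrays of spp-2 lay below the median of the array. The other 14 spp genes were called at none of the 3 times. They include spp-12, which is known from neurons of the pharynx (differences of -0.25, 0.09 and -0.43), and spp-7 (0.27, -0.08 and 0.17). Also among them is spp-14, whose soils were apart at 0 days (0.75 ± 0.26, adjusted p = 0.0595). That difference was called with centred arrays, array weights and a trend with robust variance (adjusted p = 0.0456, 0.0286 and 0.0466). It was also called with the low-signal filter, the compared arrays alone and the replicate block (adjusted p = 0.0428, 0.00644 and 0.00331).

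Many of these genes lie beside each other. In the RefSeq annotation 22 of the 44 have another of them within 3 protein-coding genes, in 8 groups, and 4 of the groups hold at least 3 genes. On the X chromosome spp-3, spp-2, spp-6, spp-4 and spp-5 follow each other with no other protein-coding gene between. Of these 5 genes 3 rose in nZVI soil at 0 days (spp-3, spp-6 and spp-5), 4 at 14 days (spp-3, spp-2, spp-4 and spp-5) and 2 at 4 months (spp-4 and spp-5). On chromosome IV ilys-3 and ilys-2 fell at 14 days, while their neighbour ilys-1 was not called at any time. On chromosome V lys-1 and lys-2 had positive differences at all 3 times and the adjacent lys-3 negative ones. Not all of these were called: lys-1 was called at 0 days and 4 months, and lys-2 and lys-3 at 14 days alone. Neighbours with similar sequences can share signal on an array, and how far that holds for these probe sets was not tested.

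**Figure D5:**
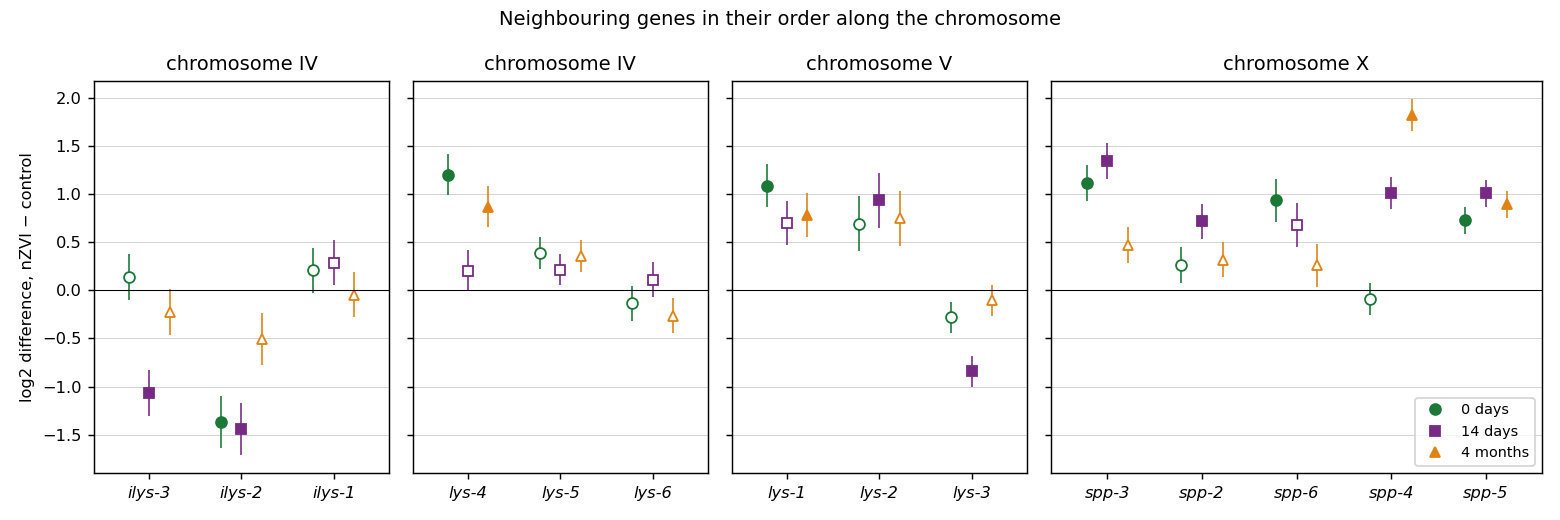
The log2 difference between nZVI and control soil of the 4 groups of 3 or more neighbouring genes, in their order along chromosomes IV, IV, V and X, with the SE as a bar (circles, 0 days; squares, 14 days; triangles, 4 months; filled, called; open, not called). The X-linked spp-4 has its largest difference at 4 months, and its neighbours spp-3 and spp-5 have theirs at 14 days.

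Over sampling time the calls among the 44 genes were mostly falls. In nZVI soil 8 fell and 2 rose from 0 to 14 days (22.7% called), where 8.8% of all probe sets were called, 4.13% higher and 4.67% lower. From 0 days to 4 months 16 fell and 2 rose (40.9%), where 22.2% of probe sets were called, 12% higher and 10.2% lower. From 14 days to 4 months 10 fell and 2 rose (27.3%), where 8.53% were called, 4.21% higher and 4.33% lower. In control soil 3 fell and 0 rose from 0 to 14 days (6.82%), where 11.9% of probe sets were called, 6.08% lower and 5.8% higher. From 0 days to 4 months 9 fell and 1 rose (22.7%), where 9.71% were called, 6.33% lower and 3.38% higher. From 14 days to 4 months 8 fell and 2 rose (22.7%), where 20.9% were called, 12% lower and 8.9% higher. The share called in control soil was thus below that of the array from 0 to 14 days and near it from 14 days to 4 months. Of the 3 falls from 0 to 14 days in control soil, 0 held without each array of the 2 groups. With arrays centred on their medians, these 3 calls became 2 lower and 1 higher. The higher one was spp-11 (2.35, adjusted p = 0.0455). The rise of spp-11, 2.32 without centring, was also called with the compared arrays alone, the low-signal filter and the replicate block (adjusted p = 0.00191, 0.0348 and 0.0266). The compared arrays alone also gave falls of spp-14, spp-17 and spp-25. The comparisons within a soil share arrays with each other and with the comparisons between soils. The highest of the 6 group means was in nZVI soil at 0 days for 19 genes (43.2%, against 17.2% of all probe sets) and in nZVI soil at 14 days for 12 (27.3% against 12.4%). The lowest was in control soil at 4 months for 16 genes (36.4% against 15.9%). The differences between times in control soil rest in part on control arrays 1 and 3 at 4 months, and with array 2 alone for that group the counts for 4 months against 0 and 14 days were both 5.

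The spp-17 gene went the other way and rose at 4 months in both soils. Its arrays read 7.72, 7.30 and 7.12 in control soil at 0 days, 6.63, 6.59 and 6.54 at 14 days and 10.61, 8.45 and 9.83 at 4 months. In nZVI soil they read 6.75, 7.34 and 6.47, then 7.85, 7.75 and 7.20, then 10.08, 9.20 and 9.91. Every array of 4 months lay above the 12 arrays of the earlier times. From 0 days to 4 months the rise was 2.25 ± 0.39 in control soil (adjusted p = 0.00167) and 2.87 ± 0.39 in nZVI soil (adjusted p = 7.12e-05). The rise in control soil had an adjusted p of 0.0512 when only its 6 arrays were fitted, and with control array 2 alone at 4 months it was 1.06 (adjusted p = 0.148). The soils were not called different at any time (differences of -0.53, 1.02 and 0.10 ± 0.39). The difference at 14 days was called when only the 6 arrays of that time were fitted (adjusted p = 0.0162) and with array weights (1.00, adjusted p = 0.00512), and that at 4 months was 1.28 with control array 2 alone (adjusted p = 0.167).

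In nZVI soil from 0 days to 4 months the largest falls were those of spp-11 (-5.29 ± 0.74), spp-29 (-2.44 ± 0.36), spp-24 (-1.80 ± 0.29), spp-6 (-1.56 ± 0.23), spp-25 (-1.53 ± 0.35) and spp-1 (-1.51 ± 0.18). ilys-3 fell over the same span by 1.47 in nZVI soil and by 1.10 in control soil (± 0.24 each, adjusted p = 0.000358 and 0.00754). In control soil lys-8 fell by 1.30 ± 0.14 and spp-1 by 1.21 ± 0.18 from 0 days to 4 months, and lys-8 by 1.53 ± 0.14 from 14 days to 4 months. In nZVI soil spp-11 fell by 3.29 ± 0.74 from 14 days to 4 months (adjusted p = 0.0106), a call lost without nZVI array 1 or 3 of 14 days (adjusted p = 0.0763 and 0.0701). Of the 44 genes 11 were called in none of the 13 comparisons (25.0%, against 49.0% of all probe sets): lys-6, lys-9, ilys-1, ilys-4, spp-7, spp-12, spp-13, spp-19, spp-21, spp-30 and spp-31. Between 14 days and 4 months the nZVI effect changed by the test in 0 of the 44 genes (1.36% of all probe sets called, limma). At an unadjusted p under 0.05 it changed in 13, where 18.8% of probe sets did. Array weights gave 10 calls, where 13.4% of all probe sets were called. Without control array 2 at 4 months there were 5, with the share of all probe sets not given.

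The pathways known to control immune effectors in the worm were read from lists of their genes, chosen with earlier results of these data known. Of all probe sets, 8.22%, 3.6% and 4.77% were called higher at 0 days, 14 days and 4 months, and 7.74%, 5.39% and 2.3% lower. The lists hold few genes, and no list was tested against these shares. Of the p38 MAP kinase pathway, which acts in the intestine through pmk-1, 6 of 7 listed genes were measured. At 0 days 1 of the 6 fell and at 14 days 2 fell: vhp-1, a phosphatase that opposes the kinases (-0.87 ± 0.17 and -1.23 ± 0.17), and at 14 days also skn-1. None was called at 4 months, and pmk-1 itself was called at no time (0.14, -0.31 and 0.11 ± 0.16). Of 8 other genes known to depend on this pathway, 2 rose and 1 fell at 0 days, 4 rose at 14 days and 5 rose at 4 months. Among them dod-24 rose by 2.36 ± 0.18 and 2.33 ± 0.18 at the later times, and irg-4 was called lower at 0 days (-0.86 ± 0.29, adjusted p = 0.0493) and higher at 14 days (1.87 ± 0.29) and 4 months (2.37 ± 0.29).

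At 0 days 8.22% of all probe sets rose and 7.74% fell. Of 8 genes of the DBL-1 pathway, a TGF-beta pathway that controls body size and immune genes, 4 rose at 0 days. They were daf-4 (0.94), sma-2 (0.68), sma-6 (0.67) and dbl-1 (0.59 ± 0.17), and none was called at the later times. Of 7 genes of insulin signalling, pdk-1 (0.74) and the transcription factor daf-16 (0.56 ± 0.14, adjusted p = 0.012) rose at 0 days and none was called later. Among 6 other regulators, bar-1 rose by 1.02 and cebp-1 fell by 1.11 at 0 days, zip-2 and cebp-1 fell at 14 days by 0.63 and 1.09, and the receptor gene fshr-1 rose at 4 months (1.47 ± 0.28, adjusted p = 0.00486). The intestinal transcription factor elt-2 was not called at any time (0.23, -0.56 and 0.02 ± 0.18).

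Some markers of tissues and stages moved with the soils as well. At the 3 times 16%, 8.99% and 7.08% of all probe sets were called, and no marker list was tested against these shares. Of 8 intestine markers 5 rose at 0 days, 3 at 14 days and 3 at 4 months, none fell, and ges-1, an intestinal esterase, rose by 1.40, 1.15 and 1.19 ± 0.22. The mean log2 signal of the 8 was 8.0 to 8.25 in control and 8.80 to 9.06 in nZVI soil at 0 days, 8.55 to 8.63 and 8.72 to 9.08 at 14 days, and 7.84 to 8.50 and 8.65 to 8.76 at 4 months. The nZVI arrays were thus above the control arrays at every time in the mean of the 8 markers, of which elt-2 was called at no time. Some other tissues moved in the same direction and some did not. Averaged over times, 5 of 8 intestine, 6 of 8 pharynx, 3 of 4 body muscle and 4 of 4 cuticle markers were called higher. In that mean 0 of 8 germline, 0 of 4 oocyte, 0 of 3 sperm and 0 of 2 coelomocyte markers were called. Of all probe sets 11% were called higher and 9.13% lower.

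Of 8 germline markers 3 fell at 0 days, with mean signals of 7.93 to 8.07 in control and 6.93 to 7.63 in nZVI soil, and none was called later. Of 4 markers of the adult and late larval cuticle 1 fell at 0 days, 4 rose at 14 days and 2 rose at 4 months, and their mean signal was 6.66 to 6.77 in control against 8.58 to 8.97 in nZVI soil at 14 days. Of 8 pharynx markers 3 rose at 0 days, 1 fell at 14 days and 1 rose at 4 months. Of 2 coelomocyte markers 1 rose at 0 days, and of 4 body muscle markers 1, 2 and 1 rose at the 3 times. Oocyte markers (4) and sperm markers (3 measured of 4) had no call. The shares of all probe sets called at the 3 times were 16%, 8.99% and 7.08%. The part of these shifts in the results of the lysozyme and saposin-like genes was not tested. Whether the marker calls at 4 months hold with control array 2 alone was not tested either.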

How the data were processed

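RNA of 18 samples was hybridised to Gene 1.0 ST arrays for C. elegans, 1 array each. Per the submitters' processing notes the authors used RMA and the Transcriptome Analysis Console (versions: not given in the sources used here). The values deposited by the authors are thus log2 signals per probe set, already background-corrected, normalised between arrays and summarised. Shifts common to most probe sets are removed by such a normalisation.

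Genes were named from the platform annotation, only where a probe set had 1 symbol, and all 44 matched RefSeq (WBcel235) by Entrez identifier. RefSeq served for chromosomes and gene order. No sequences are shown. The members and the gene lists were chosen with earlier results of these data known.

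The log2 values were fitted with limma 3.58.1 in R 4.3.3 (lmFit, contrasts.fit, eBayes), with 1 coefficient for each of 6 groups over all 18 arrays. There were 13 comparisons: nZVI against control at each of 3 times and averaged, 3 differences of that effect between times, and 3 pairs of times within each soil. Tests were two-sided, with Benjamini-Hochberg adjustment over 28387 probe sets and a threshold of 0.05. The code was tested on simulated data. Values of every array are given for genes called in at least 1 of the 3 comparisons of the soils at one time (the 14 with the largest difference) and always for lys-1, lys-7, lys-8, spp-1, spp-5 and ilys-3. The values of lys-2, lys-3, lys-10 and spp-17 were added after they were seen.

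Replicates are 3 RNA samples per group. Nothing says that they came from separate cultures, so p-values measure the spread between these samples, which may be technical. Same-numbered arrays of the soils correlated in their deviations from the group means at 0.374, 0.28 and 0.104 at 4 months. They correlated at 0.0789, 0.0224 and 0.226 at 0 days and at 0.0261, 0.0686 and 0.155 at 14 days. The labels give replicate numbers alone and state no pairing at any time. A pairing by number at 4 months was inferred from these correlations, and nZVI array 3 there correlated almost equally with control array 2 (0.103). No pair of arrays shared more than 0.109% identical values. The alternatives were another scaling, array weights, a trend with robust variance, a low-signal filter (signal over the overall median in at least 3 arrays), the compared arrays alone, a 2-fold rule, the replicate block and leaving out each array.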

Additional observations from a re-analysis of the deposited data

Results flagged for a closer look

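The difference between nZVI and control soil changed with sampling time by the test in 3 genes, all of them saposin-like. That is 6.82% of the 44, where 5.39% of all probe sets changed in at least 1 of the same 3 comparisons. In spp-4 the difference grew from 0 to 14 days by 1.10 (adjusted p = 0.0306) and from 0 days to 4 months by 1.91 (adjusted p = 0.000188). In spp-11 it changed from 0 days to 4 months by -5.48 (adjusted p = 0.00773), and in spp-29 by -2.92 (adjusted p = 0.0039). For the change of the nZVI effect from 0 days to 4 months, 2 of 4 cuticle markers and 1 of 8 germline markers were called higher, and 1 of 8 intestine and 1 of 8 pharynx markers lower. Within nZVI soil over the same span all 4 cuticle markers, all 8 germline markers, 3 of 4 oocyte markers, 2 of 4 body muscle markers and 1 of 3 sperm markers rose, and 4 of 8 pharynx markers, 1 of 8 intestine markers and 1 of 2 coelomocyte markers fell. Of all probe sets 2.96% were called higher and 1.35% lower for that change of effect. Within nZVI soil 12% of all probe sets rose and 10.2% fell over this span. The part of the marker shifts in the changes of the 3 genes was not tested.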

How the results depend on the processing

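No gene of the 44 changed direction while called, in any comparison or alternative that gave a value. Counts of called genes with arrays centred on their medians stayed within 1.5 times the original in all 13 comparisons. Array weights raised the calls over the whole array too: they gave 27 genes (61.4%) at 14 days, where 24.1% of all probe sets were called, 5, 5 and 10 for the changes of the nZVI effect (0 to 14 days, 0 days to 4 months, 14 days to 4 months), where 4.42%, 8.77% and 13.4% were, and 13 for control soil from 0 to 14 days, where 30.5% were. A trend with robust variance gave 0 for the first of these changes (0.902% of probe sets). The low-signal filter, which kept 30 of the 44 genes and 15849 probe sets, gave 2 there and 5 for control soil from 0 to 14 days (2.27% and 23.9% of the probe sets kept). The compared arrays alone gave 5 genes at 4 months, 3 for the change from 0 to 14 days, 6 and 3 for control soil from 0 to 14 days and to 4 months, and 7 for nZVI soil from 14 days to 4 months (1.35%, 1.23%, 17.8%, 2.62% and 5.85% of probe sets). Differences of at least 2-fold with unadjusted p under 0.05 gave 9, 10 and 4 genes at the 3 times (6.44%, 4.69% and 4.55% of probe sets), 5 (2.86%) for their mean, 5 and 1 (4.19% and 5.64%) for the changes from 0 to 14 days and from 14 days to 4 months, 5 and 5 (4.01% and 6.61%) for control soil at 4 months against 0 and 14 days, and 7 (3.73%) for nZVI soil from 14 days to 4 months.

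The replicate block gave 5 for the change of effect from 0 days to 4 months (3 without it), where 6.07% of probe sets were called, and 8 for control soil from 0 to 14 days (3 without it), where 14.9% were. At 4 months it ended the calls of lys-1 and spp-16, given above, and no other. At 0 and 14 days it gave 20 and 17 genes against 18 and 16 (17.9% and 10.1% of all probe sets called with the block). With control array 2 alone for control soil at 4 months, an alternative chosen after seeing the data, the counts were 3 at 4 months, 3 for the change of effect from 0 to 14 days, 6 for control soil from 0 to 14 days, and 5 and 5 at 4 months against 0 and 14 days (0.655%, 1.94%, 16.6%, 2.7% and 1.17% of probe sets). The lone array was then assumed to vary like the other groups.

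Without 1 array at a time the counts ran from 14 to 19 at 0 days, 12 to 19 at 14 days, 7 to 14 at 4 months and 22 to 25 for the mean. The shares of all probe sets called in these fits are not given, so these ranges are not set against the whole array. For the changes of effect they ran from 0 to 3 (0 to 14 days), 3 to 8 (0 days to 4 months, 8 without control array 2 of 4 months) and 0 to 5 (14 days to 4 months). In control soil they ran from 0 to 6, 6 to 14 and 7 to 14, and in nZVI soil from 6 to 10, 17 to 20 and 6 to 13. The calls that held without each array of their own groups were 12 of 18 at 0 days, 12 of 16 at 14 days and 7 of 11 at 4 months. Taking the probe set of lowest mean could give no other value, since each gene has 1 probe set, and the mean of 3 times has no smaller set of compared arrays. The number of arrays limits the precision.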
